A study of Mus musculus with 5 samples.

Results

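Among Prx1-derived cells of uninjured mouse skeletal muscle, a small set carried RNA of several of the genes Saa1, Trf, Dlk1, Thrsp, Cp and Adamtsl2. A cell was taken into this set when at least 3 of these 6 genes (the rule genes) had 1 or more UMIs (unique molecular identifiers, each marking 1 captured RNA molecule). Of 4632 cells of the d0 library that passed the filter, 142 met the rule (3.07%, exact 95% interval 2.59 to 3.60), out of 29831 filtered cells in all 5 libraries. The filter kept cells with 350 to 8000 detected genes, under 20% of UMIs on mitochondrial genes and at least 1000 UMIs. The members were chosen by the measured counts of the 6 genes, so the levels of these genes in them are a description. They are called rule cells below.

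The study followed mesenchymal cells of muscle around the tibia before and after injury by single-cell RNA sequencing. Cells were GFP+ cells sorted from Prx1Cre;mTmG mice on a C57Bl/6 background, 10 to 14 weeks old, males or females per the study's methods, in which Cre under the Prx1 limb mesenchyme enhancer turns a membrane Tomato reporter into GFP, permanently and in all descendants. The groups were d0 (uninjured), d3 and d5 post-fracture (a non-stabilized tibial fracture), and d3 and d5 post-polytrauma (the fracture with injury to the adjacent muscles), with 1 library each, pooled from 2 mice. The 4490 other d0 cells were the comparison, and with 1 library per condition no difference was tested and all intervals cover counting error only. Rule cells held a median of 4266.5 UMIs (range 1132 to 8832) and 1598.5 detected genes, against 3618 UMIs and 1366 genes in the other d0 cells. The median mitochondrial share was 2.81% in rule cells and 3.15% in the others.

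Saa1 encodes serum amyloid A1, an acute-phase protein secreted by the liver and by some stromal cells, and Trf encodes transferrin, the iron carrier of plasma. Cp encodes ceruloplasmin, a copper-containing ferroxidase that loads iron onto transferrin. Dlk1 is an imprinted, membrane-bound protein related to Notch ligands that is known from fat precursors, where it restrains adipogenesis. Thrsp is a nuclear protein linked to the control of lipogenic enzymes, and Adamtsl2 is a secreted glycoprotein of the microfibril network that binds LTBP1. The resident mesenchymal cells of muscle, known as fibro-adipogenic progenitors or mesenchymal progenitors (FAP/MP), lie in the interstitium, make matrix and trophic factors, and can turn into fat, fibrous tissue, cartilage or bone cells under different cues.

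Saa1 (ENSMUSG00000074115, chromosome 7, 46740497 to 46742980, minus strand, GRCm38) lies beside Saa2, a close copy whose reads can be shared with it. The stretches before the starts of both genes are shown because they show how alike the neighbours are. They cover the bases 200 to 51 upstream of the RefSeq start (GRCm38.p6), 5′ to 3′ on each gene's own strand, and capitals mark the letters TTGCNNAA, a core that C/EBP factors are known to bind.
Saa1, chr7:46743031-46743180, minus strand: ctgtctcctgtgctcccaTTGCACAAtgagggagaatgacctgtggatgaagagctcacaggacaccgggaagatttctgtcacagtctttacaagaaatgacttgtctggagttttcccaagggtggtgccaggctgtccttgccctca
Saa2, chr7:46751633-46751782, plus strand: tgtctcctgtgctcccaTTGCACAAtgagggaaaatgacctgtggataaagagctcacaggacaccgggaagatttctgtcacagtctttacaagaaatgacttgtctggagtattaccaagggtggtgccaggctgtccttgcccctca
In a global alignment, 145 of 151 aligned positions were identical (96.0%). Searched on both strands over 250 upstream bases, TTGCNNAA was present in 9.56% of 32851 promoter windows. It was found for 2 of the 5 rule genes that had a window, Saa1 and 1 of the windows of Cp, and not for Dlk1, Thrsp or Adamtsl2. The match is a description of letters, not of a bound site. Of the other rule genes, Trf lies on chromosome 9 (103204001 to 103230444), Dlk1 on chromosome 12 (109452823 to 109463336), Thrsp on chromosome 7 (97412938 to 97417730), Cp on chromosome 3 (19957054 to 20009145) and Adamtsl2 on chromosome 2 (27079379 to 27108981), and all 6 are protein-coding.

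Among rule cells, the summed level of Saa1 was 575 CPM (counts per 1e6 UMIs of the group, 95% Poisson interval 517 to 637). A single cell held between 0 and 22 Saa1 UMIs, with a median of 1. The other d0 cells held 7.61 CPM (6.35 to 9.05) and the 561 cells with at least 2 of the 3 pericyte markers Cspg4, Des and Mylk held 2.31 CPM. After 2000 UMIs were drawn from each cell, Saa1 was detected in 51.1% of 139 rule cells and in 0.556% of 540 pericyte-marker cells (median depths 4266.5 and 4522 UMIs). In pericyte-marker cells, free RNA and RNA made by the cells themselves were not told apart. The 142 rule cells held 73.8% of all Saa1 UMIs of the d0 library and the 10 cells with most Saa1 held 38.3% of those of the set.

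Trf reached 963 CPM in rule cells and 40.9 CPM in other d0 cells, with 0 to 57 UMIs per rule cell and a median of 1. It was the most abundant rule gene and an uneven one, since 10 cells held 41.0% of its UMIs in the set. Dlk1 stood at 321 CPM against 6.25 CPM, with 0 to 7 UMIs per rule cell, and Thrsp at 206 CPM against 2.26 CPM, with 0 to 6. Cp stood at 315 CPM against 30.5 CPM, with 0 to 13 UMIs per rule cell, and Adamtsl2 at 375 CPM against 19.7 CPM, with 0 to 7. Rule cells held 77.2% of the Thrsp UMIs of the library and 65.7% of those of Dlk1, and 27.8% of those of Cp, shares that the rule itself helps to set. No rule gene was found in every member: Adamtsl2 had a UMI in 109 cells (76.8%), Cp in 103, Saa1 in 92, Dlk1 in 85, Trf in 81 and Thrsp in 62 (43.7%). At a median of 1 UMI or less per cell for each rule gene, a cell without a UMI is not shown to lack the RNA.

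**Figure D1:**
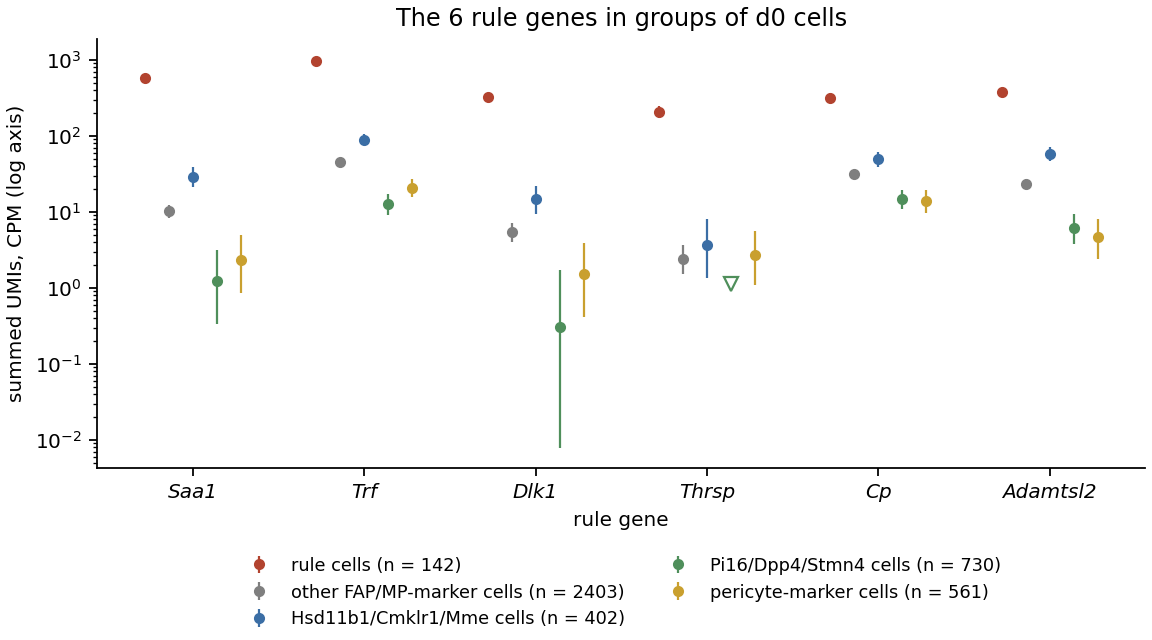
Summed UMIs of each rule gene in CPM (log axis) in 5 groups of d0 cells, with exact Poisson 95% intervals; an open triangle is the upper limit where no UMI was found. Rule cells were highest for all 6 genes by construction, and among the other groups the Hsd11b1/Cmklr1/Mme cells had the highest value of each gene, from 3.70 CPM for Thrsp to 88.9 CPM for Trf.

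The 6 genes tended to occur in the same cells, also without the limit of 3 genes. In all 3888 d0 cells thinned to 2000 UMIs, Dlk1 was detected in 35.9% of the 103 cells with Saa1 (26.7 to 46.0) and in 1.61% of cells without it. Adamtsl2 was detected in 53.6% of the 56 cells with Thrsp (39.7 to 67.0) and in 4.49% of cells without it. Trf was detected in 20.3% of the 237 cells with Cp (15.3 to 25.9) and in 5.53% of the rest. The genes were selected on these same cells, so the overlap is a description.

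Of the 4632 d0 cells, 3612 had none of the rule genes, 708 had 1, 170 had 2, 69 had 3, 46 had 4, 21 had 5 and 6 cells had all of them. The most frequent combination was Trf, Cp and Adamtsl2 in 12 cells (8.45% of the set), and 38 combinations occurred. The cells just inside the limit (3 genes, 69 cells, median 3947 UMIs) and just outside it (2 genes, 170 cells, median 3817 UMIs) formed a gradient for genes that the rule did not use. Cxcl14, a chemokine of stromal cells, stood at 110 CPM in cells with none of the rule genes, 416 CPM with 1, 957 CPM with 2, 1793 CPM with 3, 1919 CPM with 4 and 1901 CPM with 5 or 6. Hsd11b1, which turns inactive cortisone into active glucocorticoid, went from 68.0 CPM through 216, 507, 939.6 and 957 to 1366 CPM over the same steps. Apod, a lipocalin that carries small lipids, went from 679 CPM through 2337, 5400 and 6625 to 6142 and 8979 CPM. Taken as ratios, most of the step thus lay below the limit of the rule, and levels from 3 genes upward were closer to each other. In CPM, Hsd11b1 went from 68.0 to 507 over the steps below the limit and from 939.6 to 1366 over those above it. Hsd11b1 and Apod were highest in the cells with 5 or 6 rule genes.

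**Figure D2:**
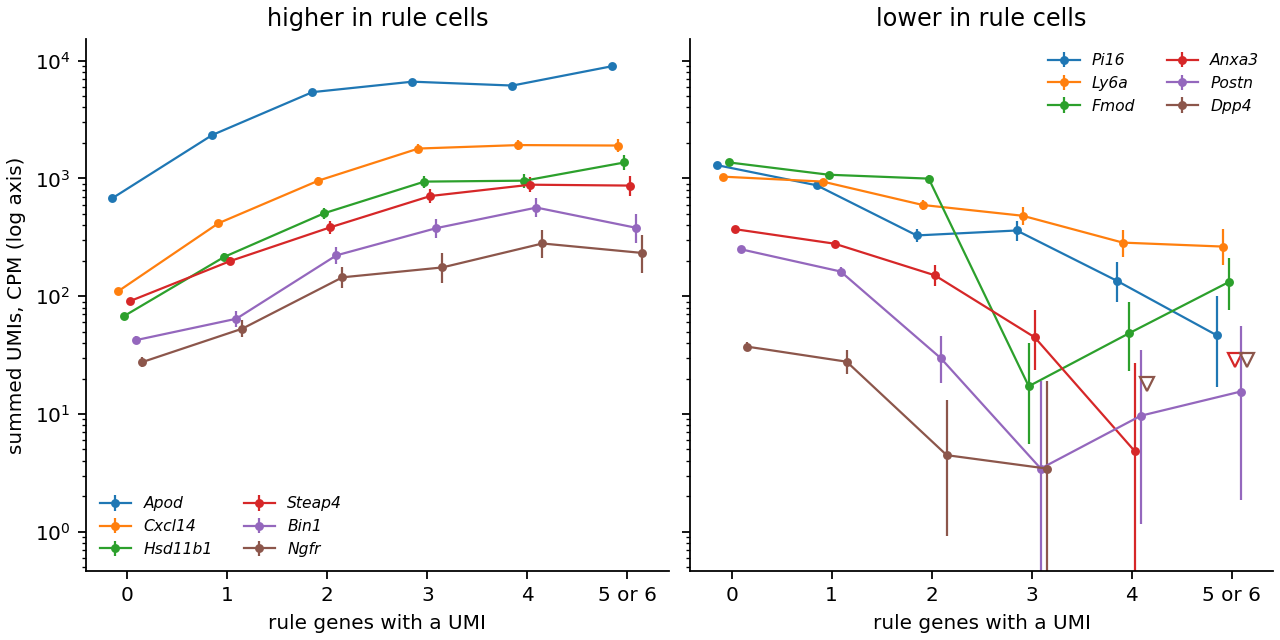
Summed UMIs in CPM (log axis) by the number of rule genes with a UMI in a d0 cell, for genes higher (left) and lower (right) in rule cells, with exact Poisson 95% intervals; open triangles are upper limits where no UMI was found. Cxcl14 went from 110 to 1793 CPM between 0 and 3 rule genes, while Pi16 went from 1298 to 361 CPM and Dpp4 from 37.4 to 3.44 CPM.

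The rule cells carried the markers by which the study defines FAP/MP. At least 3 of Prrx1, Cxcl12, Pdgfra, Ly6a and Cd34 were detected in 107 of 142 rule cells (75.4%, 67.4 to 82.2) and in 53.5% of the other d0 cells. Pdgfra, a receptor by which such cells are often sorted, stood at 286 CPM in rule cells and 153 CPM in the other d0 cells, and Cxcl12, a chemokine that retains blood cells, at 532 CPM against 365 CPM. The limb mesenchyme factor Prrx1 stood at 89.4 CPM against 136 CPM and Cd34 at 533 CPM against 695 CPM. Ly6a, which encodes the surface protein Sca1, was at 372 CPM against 1002 CPM. It was the 1 marker of the 5 that was at least 2-fold lower, where 9.74% of all genes that passed the filter described below were. Against the 2403 other d0 cells with at least 3 of these markers, which were chosen by them, 2 of the 5 were lower, where 5.99% of all genes were. The word progenitor in the name of the set could not be checked, as no function was measured.

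Markers of most other cell types were low, with the Schwann markers S100b and Cdh19 as exceptions. Of the tenocyte markers, Scx and Kera had 0 UMIs in rule cells and Tnmd 28.7 CPM, against 471 CPM in the other d0 cells. No rule cell held 2 of these 3 markers, and 15 of 142 (10.6%) held 2 of the 3 pericyte markers (6.03 to 16.8), against 12.5% of the other d0 cells, which include the pericyte-marker cells, and 3.12% of the other FAP/MP-marker cells (2.46 to 3.90). The summed level of the pericyte list was 145 CPM against 611 CPM, with Mylk its most abundant gene in rule cells at 75.0 CPM. All 5 adipocyte markers (Adipoq, Plin1, Cidec, Retn, Lep) and all 5 myogenic markers (Pax7, Myod1, Myf5, Cdh15, Chrna1) were at 0 UMIs. Of the hepatocyte markers, given because the liver is the main source of Saa1, Trf and Cp in the body, Apoa1 had 1 UMI and Alb, Ttr, Serpina1a and Apoh had none. Of the hematopoietic markers 4 of 6 were at 0 UMIs, with Cd68 the highest at 9.58 CPM, and of the endothelial markers 3 of 5, with Tek the highest at 22.4 CPM. The list of 4 Schwann markers stood 1.70 above the other d0 cells in mean log2(CPM + 1) (1.32 to 2.07), at a summed 121 against 27.7 CPM, and none of the 4 passed the filter described below. The list leaves out 1 marker that is not reported here, which made its difference larger. Of these markers, S100b stood at 75.0 CPM and Cdh19 at 39.9 CPM in rule cells, against 23.7 and 2.74 CPM in the other d0 cells, while Sox10, a factor that defines the lineage, was at 0 UMIs. The part of such cells in the other results was not tested.

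Against the 4490 other d0 cells, 3594 genes passed a filter of 20 UMIs expected in rule cells at the pooled rate, of which 126 were at least 2-fold higher in rule cells (3.51%) and 350 at least 2-fold lower (9.74%). Of the 6 rule genes 3 passed this filter, and they are among the 126, which leaves 123 others. Cp and Adamtsl2 passed only through their level in rule cells, on which the members were chosen. Compared with the 2403 other cells with at least 3 FAP/MP markers, 110 of 3556 genes were higher (3.09%) and 213 were lower (5.99%). Here 4 rule genes passed the filter and are among the 110, which leaves 106 others. Of these rule genes, Saa1, Cp and Adamtsl2 passed only through their level in rule cells. The median log2 ratio of all genes that passed was -0.03 and -0.02 in these comparisons. A pooled filter can leave out a gene that is found almost only in rule cells, so a few list genes below it are given by their levels alone. The pooled rate includes the rule cells, so a gene can also pass through its level in them.

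**Figure D3:**
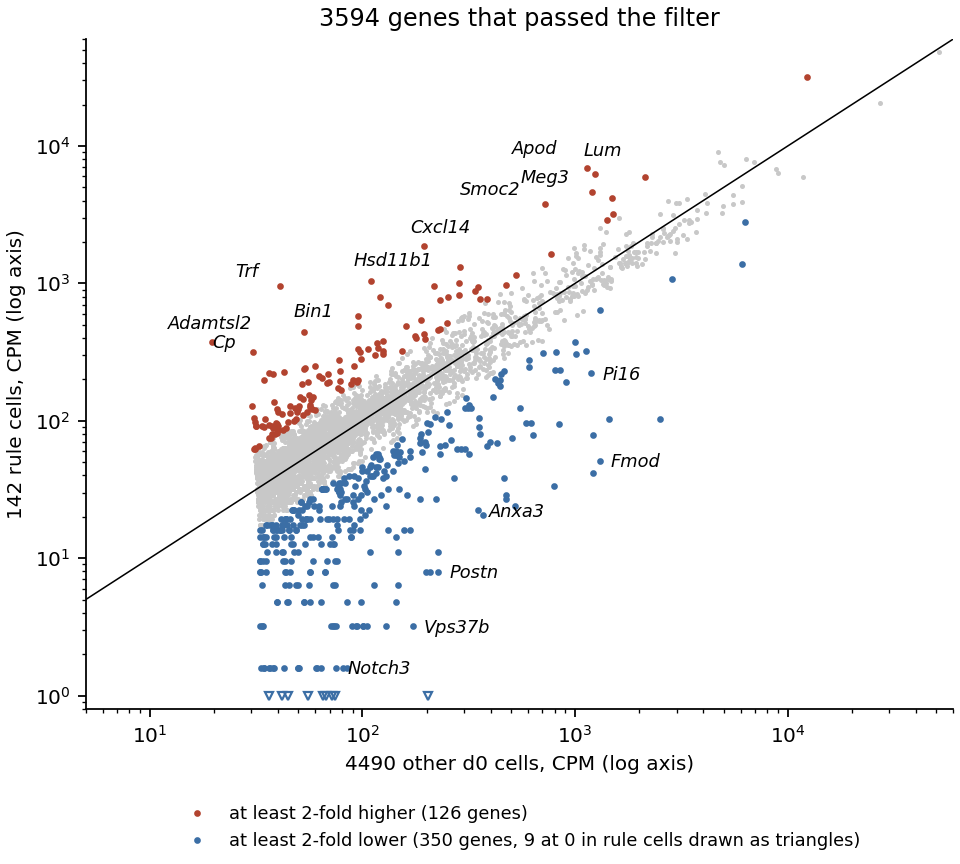
CPM of each of 3594 genes in 142 rule cells (vertical, log axis) and 4490 other d0 cells (horizontal, log axis), with the line of equal levels; genes at least 2-fold higher are red (126) and at least 2-fold lower blue (350), and 9 genes with no UMI in rule cells are triangles at the lower edge. Trf, Adamtsl2 and Cp were used by the rule, while Cxcl14, Hsd11b1, Bin1, Apod and Lum were not.

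The largest ratios to the high side are given first. Cxcl14 was at 1857 CPM in rule cells and 194 CPM in other d0 cells (9.58-fold), with a UMI in 94.4% and 22.7% of cells. Hsd11b1 was at 1033 CPM and 109.6 CPM (9.43-fold). Both were also far above the pericyte-marker cells, which held 61.2 CPM of Cxcl14 and 33.5 CPM of Hsd11b1. Bin1, a membrane-bending BAR-domain protein, was 8.29-fold higher (441 against 53.2 CPM) and Steap4, a ferric and cupric reductase, 6.65-fold higher (799.9 against 120.3 CPM). Apod was found in all 142 rule cells, at 6949.8 CPM against 1137 CPM, and G0s2, an inhibitor of the lipase ATGL, was 6.11-fold higher (583 against 95.4 CPM).

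The other named genes had ratios from 6.10 down to 4.59. Ngfr, the low-affinity neurotrophin receptor, was 6.10-fold higher (222 against 36.4 CPM), Mdk, the heparin-binding growth factor midkine, 5.17-fold (492 against 95.1 CPM) and Enpp2, which makes lysophosphatidic acid, 5.28-fold (694 against 131 CPM). Smoc2, a calcium-binding matricellular protein, was at 3766 CPM against 718 CPM, and Lum, the collagen-binding proteoglycan lumican, at 6265 CPM against 1235 CPM. Col15a1, a collagen of the basement membrane zone, was at 1325 CPM against 288 CPM. Rasgrp2, an activator of Rap1, Abca8b, a lipid transporter, and Mest, an imprinted hydrolase, were 5.75-fold, 5.29-fold and 5.75-fold higher. Of these 15 genes named for the largest ratios, 10 were among the 15 of the comparison with FAP/MP-marker cells. Rasgrp2 was below the filter in that comparison, at 219 against 17.4 CPM. The 5 named there alone were Col18a1 (212 against 43.2 CPM), Abca9 (136 against 29.7 CPM), Apoe (949.9 against 212 CPM), the retinol carrier Rbp4 (136 against 31.0 CPM) and the matrilin Matn2 (236 against 56.9 CPM). Abca9 and Rbp4 passed the filter only through their level in rule cells, being under 20 expected UMIs at the rate of FAP/MP-marker cells alone.

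Genes of the Hsd11b1/Cmklr1/Mme group of FAP/MP were mostly shared. Of 8 genes listed for this group 7 passed the filter, and 5 were at least 2-fold higher in rule cells and none lower, where 3.51% of all genes were higher. The list stood 1.42 above the other d0 cells in mean log2(CPM + 1) (1.25 to 1.60), and the median log2 ratio of its 7 genes was 1.54. The 402 other cells with at least 2 of Hsd11b1, Cmklr1 and Mme were intermediate for many genes: Cxcl14 stood there at 713 CPM, Col15a1 at 792 CPM, G0s2 at 347 CPM and Lpl, the lipoprotein lipase, at 773 CPM, against 1857, 1325, 583 and 940.4 CPM in rule cells. The defining genes themselves were not all highest in rule cells. Mme, a neutral endopeptidase, stood at 117 CPM in rule cells and 249 CPM in the Hsd11b1/Cmklr1/Mme cells, and Cmklr1, the receptor of chemerin, at 57.5 CPM and 184 CPM, although these cells were chosen by the genes. Apod was at 6949.8 CPM in rule cells and at 1534 CPM in those cells.

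Genes of the Pi16/Dpp4 group went the other way. This group of fibroblasts is known from the outer layers of connective tissue and vessels. Of its 10 genes 9 passed the filter, and 9 were at least 2-fold lower in rule cells, where 9.74% of all genes were lower; in the comparison with FAP/MP-marker cells it was 10 of 10, where 5.99% were lower. The difference of the list in mean log2(CPM + 1) from the other d0 cells was -2.30 (-2.58 to -2.01). Pi16 was at 222 CPM in rule cells, 1191 CPM in the other d0 cells and 3878 CPM in the 730 cells with at least 2 of Pi16, Dpp4 and Stmn4. Dpp4, the peptidase CD26, left 1 UMI in the set (1.60 against 34.5 CPM), and Anxa3, a phospholipid-binding annexin, 14 UMIs (22.4 against 347 CPM).

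Genes listed as imprinted included some of the most abundant transcripts, mostly through Dcn, at 31559 of a summed 37549 CPM in rule cells. Imprinting in these cells was not measured. Of 15 imprinted genes measured 11 passed the filter, 4 were at least 2-fold higher and none lower, where 3.51% and 9.74% of all genes were, with a median log2 ratio of 0.82. The 4 were Mest, Meg3, Peg3 and Dcn. Meg3, a noncoding RNA of the Dlk1 locus, stood at 4639.6 CPM against 1198 CPM. It was higher in the 85 rule cells with a Dlk1 UMI (5244 CPM, 5016 to 5481) than in the 57 without one (3728 CPM, 3492 to 3975). Peg3, a zinc finger protein, was at 121 CPM against 39.5 CPM, and Dcn, the proteoglycan decorin, at 31559 CPM against 12267 CPM. Igf2 and H19 were not higher in rule cells, at 3.19 against 3.45 CPM and 44.7 against 75.4 CPM.

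Iron genes moved only in part. Of 14 further iron handling genes 6 passed the filter, and Steap4 and Steap3, both ferric reductases, were at least 2-fold higher (799.9 against 120.3 CPM and 196 against 90.2 CPM), where 3.51% of all genes were. Against FAP/MP-marker cells Steap4 alone was, 1 of 6, where 3.09% of all genes were. The ferritin chains Fth1 and Ftl1 stood at 4499 against 4069.7 CPM and 5131 against 6068 CPM, and the median log2 ratio of the list was 0.47. The receptor of transferrin, Tfrc, was at 12.8 against 10.1 CPM. Among acute-phase genes, Saa2 stood at 47.9 CPM against 1.13 CPM, but its 30 UMIs in rule cells can be reads of Saa1. Saa3, which is known from stromal cells and macrophages, was at 3.19 against 2.97 CPM, and Saa4, Hp, Lcn2, Orm1, Fga and Fgb were at 0 UMIs. Of 17 acute-phase and C/EBP genes 8 passed the filter, none was higher and Cebpb was lower (102 against 235 CPM), 1 of 8 where 9.74% of all genes were lower. None of 8 was higher or lower against FAP/MP-marker cells.

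Fat and lipid genes showed the same kind of split. Lpl was at 940.4 CPM against 349 CPM, Apoe at 949.9 against 217 CPM and Plin2, a lipid droplet coat protein, at 121 against 57.8 CPM. Pparg, the factor that drives fat cell formation, and Fabp4 were at 0 UMIs in rule cells, and Cebpa was at 31.9 against 11.0 CPM. Of 16 genes of the adipogenic and lipid list 7 passed the filter, 3 were higher and 1 lower (Cebpb), where 3.51% and 9.74% of all genes were, with a median log2 ratio of 0.59. Against FAP/MP-marker cells Lpl and Apoe were higher and none was lower, of 6, where 3.09% and 5.99% of all genes were. Of 12 lipogenic enzymes and regulators, the genes with which Thrsp is usually read, 4 passed the filter and none was at least 2-fold higher or lower, with Fasn at 41.5 against 31.3 CPM.

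Matrix genes moved in both directions. Of 20 collagen and matrix genes, all passed the filter, 3 were higher (Lum, Col15a1 and Col4a1) and 6 lower, where 3.51% and 9.74% of all genes were, and 11 were neither. Col4a1, a network collagen of basement membranes, was at 1145 CPM against 527 CPM, and against FAP/MP-marker cells (636 CPM) it did not reach 2-fold, so that 2 were higher and 5 lower of 19, where 3.09% and 5.99% of all genes were. The 6 lower genes were Col14a1, Postn, Aspn, Fmod, Fn1 and Tnc. Fmod, a tendon proteoglycan, was at 51.1 CPM against 1305 CPM in the other d0 cells and 273 CPM in FAP/MP-marker cells, Aspn at 38.3 against 464 CPM and Postn, a matricellular protein of injured and fibrous tissue, at 7.98 against 227 CPM. Fn1 stood at 305 CPM against 1009.7 CPM. Of 21 microfibril genes other than Adamtsl2, 15 passed the filter, 4 were lower (Fbln1, Eln, Mfap4 and Mfap5), where 9.74% of all genes were, and none higher, and Ltbp1, the partner of ADAMTSL2, stood at 89.4 against 73.8 CPM.

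Regulatory and signalling genes differed within their lists. Sox9, the factor that starts cartilage formation, was at 249 CPM against 59.9 CPM, while Col2a1 and Acan, its cartilage targets, were at 0 UMIs. Of 8 chondrogenic genes 2 passed the filter, Sox9 higher and the matrix gene Comp lower (57.5 against 231 CPM), where 3.51% and 9.74% of all genes were. The list difference was -1.26 (-1.55 to -0.97) from the other d0 cells and -0.42 (-0.73 to -0.11) from FAP/MP-marker cells. Alpl, tissue-nonspecific alkaline phosphatase, which was below the filter, was at 155 CPM against 17.7 CPM, with a UMI in 58 of 142 rule cells (40.8%) and in 1.43% of pericyte-marker cells. The osteoblast genes Sp7 and Ibsp were at 0 UMIs and Bglap at 1 UMI. Of 8 osteogenic genes 1 passed the filter, Bglap2, which left 1 UMI in rule cells (1.60 against 50.3 CPM), and the list difference was -0.74 (-1.15 to -0.33). Of 8 genes of the IGF system 6 passed the filter, Igf1 was higher (1012 against 283 CPM) and Igfbp5 lower (192 against 904 CPM), where 3.51% and 9.74% of all genes were. Of 11 Wnt antagonists and BMP regulators 4 passed the filter and all 4 were lower, where 9.74% of all genes were, but against FAP/MP-marker cells 3 of 4 were lower and 1 (Bmper) higher, where 5.99% and 3.09% of all genes were. Among them were Sfrp4 at 27.1 against 221 CPM and Wif1 at 3.19 against 94.2 CPM in the other d0 cells. Sfrp1 and Bmper, which were below the filter in the comparison with other d0 cells, went the other way, at 76.6 against 11.7 CPM and 89.4 against 27.1 CPM.

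On the low side, the largest ratios were those of genes with few or no UMIs in rule cells. Aif1l, Gucy1a1 (a subunit of the nitric oxide receptor), Apold1 and Map3k7cl had no UMI in rule cells. Against a floor of 3 UMIs over the set, they were at least 9.36-fold (Aif1l) to at least 15.5-fold (Apold1) lower than in the other d0 cells. Vps37b, Notch3 (a receptor that pericytes need), Sorbs2, Lmod1 (an actin nucleator of smooth muscle), Rbpms2 and Ccrl2 left 1 or 2 UMIs each. Apart from Aif1l, which was at 126 CPM in the Pi16/Dpp4/Stmn4 cells and 5.39 CPM in pericyte-marker cells, the 9 other genes stood at 278 CPM (Lmod1) to 761 CPM (Vps37b) in the pericyte-marker cells, with Notch3 at 336 CPM. In FAP/MP-marker cells Notch3 was at 16.7 CPM and Lmod1 at 11.6 CPM. Of the genes low against FAP/MP-marker cells, Galnt16 and Aif1l were at 0 UMIs, Pdlim1, Dpp4, Car8, Limch1, Cadm3 and Anpep left 1 to 3 UMIs each, Postn was 27.2-fold lower and Anxa3 was at 22.4 against 469.7 CPM. Of 14 Notch genes 5 passed the filter, none was higher and 3 were lower (Notch3, Hes1 and Nrarp), where 9.74% of all genes were lower, and the Notch target Hes1 was at 145 CPM against 307 CPM. Against FAP/MP-marker cells 1 of 3 was lower (Hes1), where 5.99% of all genes were, and the list difference was -0.65 in place of -1.32.

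**Figure D4:**
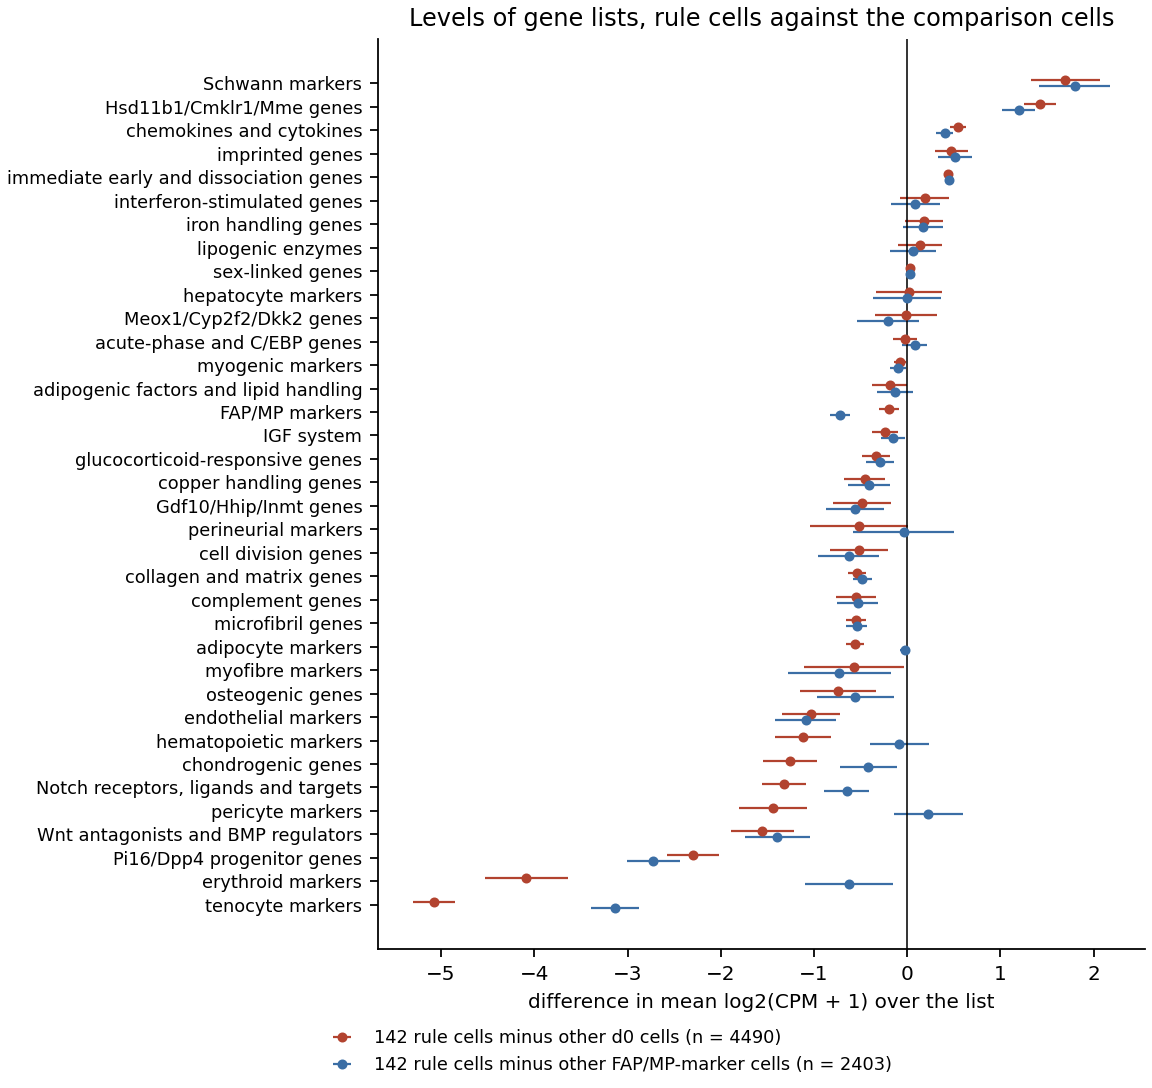
Difference in mean log2(CPM + 1) over each of 36 gene lists between 142 rule cells and the 4490 other d0 cells (red) or the 2403 other FAP/MP-marker cells (blue), with 95% counting intervals. Against the other d0 cells the Hsd11b1/Cmklr1/Mme list stood at 1.42, the Schwann list, from which 1 marker is left out, at 1.70 and the tenocyte list at -5.08. The pericyte list changed from -1.44 to 0.23 between the comparisons.

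Genes of stress and tissue dissociation were also above the other cells. The 12 immediate early and dissociation genes stood 0.44 higher in mean log2(CPM + 1) (0.40 to 0.47), with Fos at 7604 CPM against 4784 CPM and Hspa1a at 8963 against 4677 CPM, although none reached 2-fold. In the comparison with FAP/MP-marker cells 1 of 12 did, Ier2 (461 against 229.7 CPM), where 3.09% of all genes did. The chemokine and cytokine list stood 0.55 higher (0.46 to 0.63). Of its 18 measured genes 11 passed the filter, 2 were at least 2-fold higher (Cxcl14 and Cxcl10) and none lower, where 3.51% and 9.74% of all genes were. The part of the dissociation genes in the other results was not tested. Cxcl5 was uneven, as a single rule cell held 42 of the 53 UMIs of the set.

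Members with and without Saa1 were compared for a few genes. Rule cells with a Saa1 UMI (92 cells) and without one (50 cells) held 1813 and 1936 CPM of Cxcl14, 1092 and 925 CPM of Hsd11b1 and 983 and 1065 CPM of Igf1. Bin1 was at 523 CPM in cells with Saa1 and 292 CPM in those without. Pi16 was at 102 CPM in cells with Saa1 (73 to 138, in 26 cells) and 440.2 CPM in those without (357 to 536, in 18 cells), and 1 cell without Saa1 held 32 of its UMIs. Anxa3 left 1 UMI in cells with Saa1 and 13 in those without. The 35 rule cells without 3 FAP/MP markers were shallower, with a median of 3580.0 UMIs against 4413 in the 107 others.

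Rule cells also lay next to each other when the 6 genes were left out. In a space of 20 principal components from variable genes without the rule genes, a mean of 53.2% of the 15 nearest neighbours of a rule cell were rule cells (median 60%), where rule cells made up 3.07% of all cells. For the other d0 cells the mean was 1.36%. Of the 142 rule cells 79 had at least 50% rule cells among their neighbours and 5 had none. A further 30 cells that did not meet the rule had at least 50% of rule cells around them, of which 20 carried 2 rule genes, 9 carried 1 and 1 carried none. These 30 cells held 2142 CPM of Cxcl14 and 1458 CPM of Hsd11b1, as well as 693 CPM of Trf. Clusters on the same space placed 122 of the 142 cells (85.9%) in 1 cluster of 269 cells at resolution 1.0, led by Apod, Cxcl14, Gpx3, Smoc2 and Lum. At resolution 0.5, 104 (73.2%) fell into a cluster of 702 cells and 27 into another of 854. Since the rule genes were selected with such clusters known, this closeness is a description.

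Before the injured libraries are read, their labels and barcodes need to be given. There were 2001 barcodes under the label d3 post-polytrauma and 6915 under d5 post-fracture. Cell numbers given with the study do not match these labels, which were kept as deposited. The libraries labelled d3 and d5 post-polytrauma share 944 barcodes, and 869 of the 1468 filtered cells of the former carry a shared barcode. The d0 library shares 405 barcodes with d3 post-fracture and 525 with d5 post-fracture, but only 2 of the 142 rule cells carry one. Depth differed strongly, with a median of 3640.0 UMIs per filtered cell at d0 and 17963, 15688, 34949 and 15753 in the libraries labelled d3 and d5 post-fracture and d3 and d5 post-polytrauma.

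Despite the greater depth, few cells of injured muscle met the rule. It was met by 17 of 5589 cells in the library labelled d3 post-fracture (0.304%, 0.177 to 0.487), 18 of 6201 in d5 post-fracture (0.290%, 0.172 to 0.458), 13 of 1468 in d3 post-polytrauma (0.886%, 0.472 to 1.51) and 15 of 11941 in d5 post-polytrauma (0.126%, 0.0703 to 0.207). Without shared barcodes 4 cells of 599 remained in the library labelled d3 post-polytrauma (0.668%). At 2000 UMIs per cell, 87 of 3888 cells met the rule at d0 (2.24%, 1.80 to 2.75), against 1 of 5364, 0 of 6118, 1 of 1438 and 0 of 11517 in the same order. For the libraries labelled d5 post-fracture and d5 post-polytrauma, with 0 cells, the exact upper limits were 0.0603% and 0.0320%, and a share of 3 cells would be 0.0490% and 0.0260%. Cells with under 2000 UMIs were left out (744 at d0, and 225, 83, 30 and 424 in the others). The order between d0 and the others did not depend on which injured label is right, since all 4 lay below d0.

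The levels over all cells of a library went the same way. Saa1 was at 28.0 CPM at d0 and 1.96, 1.56, 0.231 and 0.143 CPM in the libraries labelled d3 and d5 post-fracture and d3 and d5 post-polytrauma. Adamtsl2 was at 32.5 CPM at d0 and at most 0.868 CPM in the others, and Thrsp at 9.58 CPM and at most 0.174 CPM. Trf went from 74.0 CPM to at most 11.2 CPM. Dlk1 was at 17.5 CPM at d0 and 2.40, 10.9, 5.13 and 13.1 CPM in the others in the same order. Cp was at 40.7 CPM at d0 and 8.14, 10.5, 38.1 and 13.3 CPM. Of the genes that went with the set at d0, Hsd11b1 was at 143 CPM at d0 and 4.84 to 11.8 CPM in the others, whereas Mest was at 40.3 CPM at d0 and 816 CPM in d3 post-polytrauma. Apod stood at 3388, 178, 4612 and 45.4 CPM in the rule cells of the libraries labelled d3 and d5 post-fracture and d3 and d5 post-polytrauma, and 9 of the 13 cells behind the value of 4612 CPM carry a shared barcode. These values are shares of sorted cells and of UMIs, not numbers of cells in the muscle, so a loss of such cells is not shown. A change in the numbers of these or of other cells and a change of the RNAs within cells cannot be told apart here. Condition and library cannot be told apart either.

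**Figure D5:**
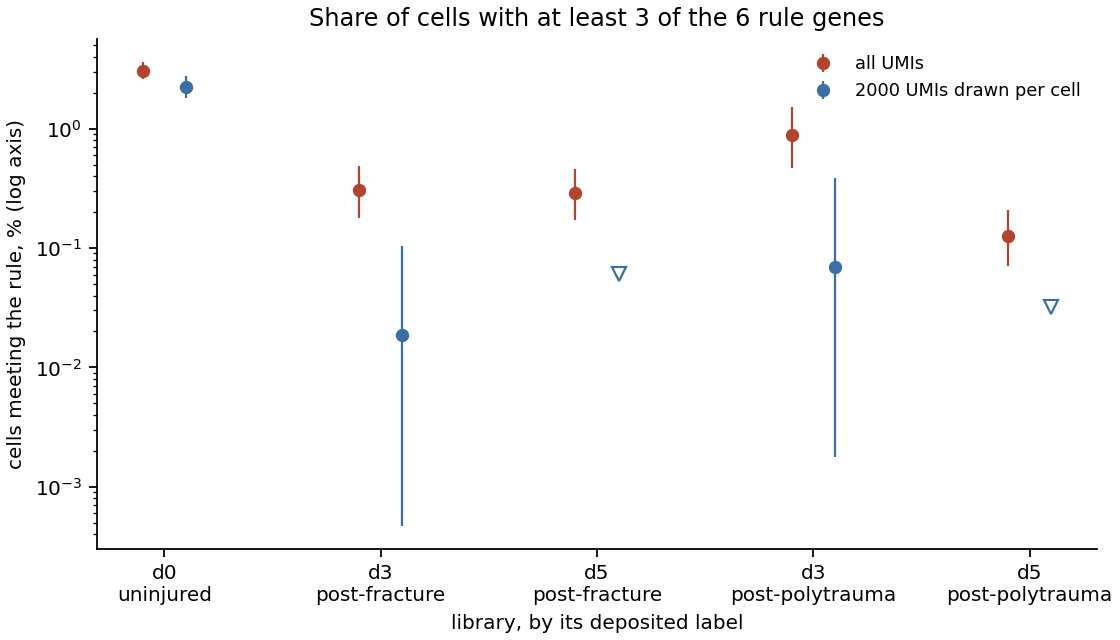
Share of filtered cells with at least 3 of the 6 rule genes in each library (log axis), from all UMIs (red) and from 2000 UMIs drawn per cell (blue), with exact 95% binomial intervals; open triangles are upper limits where no cell met the rule. The d0 library stood at 3.07% and 2.24%, and the 4 injured libraries at 0.126% to 0.886% and at most 0.0695%.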

How the data were processed

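Droplet libraries (10x Genomics) of GFP+ cells from 5 conditions were used. The authors aligned reads to mm10 with Cell Ranger (3.1.0 in the matrix header, a later version in the methods) and used Seurat 3.1.2 per the labels. They deposited raw UMI counts per gene and barcode without normalization. Of 31055 genes, 31011 were found in GENCODE M21. The d0 library held 18247307 UMIs over 5653 barcodes, and the libraries labelled d3 and d5 post-fracture and d3 and d5 post-polytrauma held 100403837, 103780343, 56084145 and 204474562 UMIs.

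From these counts, CPM was computed on summed UMIs with exact Poisson intervals, and shares with Clopper-Pearson intervals, all at 95%. These cover counting error only, since libraries are not replicated. For shares across depths, 2000 UMIs were drawn per cell. A gene was called at 2-fold among genes with 20 expected UMIs in rule cells. List levels are means of log2(CPM + 1). Named genes were the 15 highest and 10 lowest ratios with non-overlapping intervals, found in at least 10% of cells of the higher group and not rule, mitochondrial, ribosomal or Gm/Rik genes, plus list genes.

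Members, markers, the 36 lists and the promoter motif were chosen with earlier results of these data known. The Schwann list leaves out 1 marker that is not reported here, which made its difference larger. Scrublet called only 3 of 5653 d0 barcodes (0.0531%) by its automatic limit, so that call did not work and doublets were kept. The 256 highest scores included 3 rule cells. Embeddings used 2000 variable genes (scanpy 1.11.5, scikit-learn 1.9.0). Figures were drawn with matplotlib 3.10.9, and intervals came from scipy 1.17.1 under Python 3.11.15. Alternatives are given at the end.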

Additional observations from a re-analysis of the deposited data

How the results depend on the processing

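No paired analysis was possible because each condition has 1 library and no result comes from a test. The share of rule cells (3.07%) was 2.24% in thinned cells, 6.74% with at least 2 rule genes and 1.58% with at least 4. It was 2.40% without Saa1 in the rule, and, as alternatives chosen after seeing the data, 2.25% without Trf, 2.33% without Dlk1, 2.16% without Cp and 2.09% without Adamtsl2. The 126 higher and 350 lower genes became 57 and 185 in thinned cells, 57 and 169 with a filter of 50 expected UMIs, and 2009 and 7164 without a filter. There were 213 lower genes against FAP/MP-marker cells, and 75 higher genes with members of at least 4 rule genes. Fewer genes passed in thinned cells (1799) and with the stricter filter (1640.0). The 21 named genes with a finite ratio kept their direction and at least 2-fold in all 227 values recomputed under settings that can move a ratio, with no ratio where a setting left no UMI. They had been named for the largest ratios in the same cells, so this is a description.

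Against FAP/MP-marker cells, the FAP/MP list difference went from -0.19 to -0.72, the Pi16/Dpp4 list from -2.30 to -2.73, and the Hsd11b1/Cmklr1/Mme list from 1.42 to 1.20. The Pi16/Dpp4 list was at -3.28 with members of at least 4 rule genes and -1.81 with a pseudocount of 10 CPM. Of the 11 lists that differed by at least 1, the pericyte list changed sign, at 0.23 (-0.15 to 0.60) against FAP/MP-marker cells. This interval holds 0, so a reversal is not shown. The list summed to 145 CPM in rule cells, 611 CPM in the other d0 cells and 128 CPM in FAP/MP-marker cells. The cause of the change was not tested. In the injured libraries, thinning gave 0.0186%, 0%, 0.0695% and 0% for the labels d3 and d5 post-fracture and d3 and d5 post-polytrauma, and at least 4 genes 0.0358%, 0%, 0.136% and 0%. With the rule genes kept among the variable genes, 62.0% of neighbours were rule cells. Depth limits genes with fewer than 20 UMIs in the set.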

Other observations

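Of 11 glucocorticoid-responsive genes 8 passed the filter, none was at least 2-fold higher and 2 were lower (9.74% of all genes), Mt2 and Cdkn1a, at 2809.9 against 6282 CPM and 233 against 851 CPM. Tsc22d3 was at 535 against 281 CPM, while the list difference was -0.34 (-0.49 to -0.19). Against the same 9.74%, the copper list had 2 lower genes of 8 that passed, Lox, the cross-linking enzyme of collagen, at 6.39 against 113 CPM, and Mt2. Of 13 complement genes 6 passed and 3 were lower (9.74% of all genes), with C3 at 65.5 against 385 CPM, while C1s1 was at 536 against 294 CPM. Interferon-stimulated genes had 1 lower gene of 3 that passed, Isg15, at 46.3 against 109 CPM, where 9.74% of all genes were lower, while against FAP/MP-marker cells none of 4 was lower and Ifit1 was higher (5.99% and 3.09% of all genes). Ifit1 was found in 8 rule cells, and 1 of these held 31 of its 45 UMIs.

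The Gdf10/Hhip/Inmt list had 2 lower genes of 4 that passed (9.74% of all genes), and the Meox1/Cyp2f2/Dkk2 list had 1 higher gene of 3, Hmcn2, at 185 against 88.6 CPM, where 3.51% of all genes were higher. Against FAP/MP-marker cells none of its 4 genes was higher and Dkk2 was lower (3.09% and 5.99% of all genes). Division genes were near 0, with Mki67, Cdk1 and Birc5 at 0 UMIs and Pcna at 73.4 CPM. The perineurial list summed to 39.9 against 52.1 CPM, with Moxd1 at 0 UMIs, and the myofibre list to 11.2 against 17.7 CPM. The 5 erythroid genes summed to 6.39 CPM in rule cells and 314 CPM in the other d0 cells, but 12.2 CPM in the other FAP/MP-marker cells, with Hbb-bs at 886 CPM in pericyte-marker cells. Xist was at 1193 CPM in rule cells and 1034 CPM in the others, and Ddx3y, Eif2s3y, Kdm5d and Uty were at 0 UMIs in rule cells. These 5 genes summed to 1034 CPM in the other d0 cells, so the Y-linked genes were near 0 there as well.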
